A study of Homo sapiens with 6 samples.

Results

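The genes described here are the NF-kappa-B transcription factor subunits and the inhibitors that feed back on them: NFKB1, NFKB2, REL, RELA, RELB, NFKBIA, NFKBIE, TNFAIP3, BCL3 and TRAF1. They were taken by gene name from a deposited table of 35974 genes. All 10 were in it, and all 10 passed the filter on low counts among 20783 tested genes. The samples were libraries of poly(A) RNA from SU-DHL-8, a human diffuse large B-cell lymphoma (DLBCL) line labelled as from lymph node and as wild type for DNMT1. Of the 6 libraries, 3 came from cells given the DNMT1 inhibitor GSK3685032 and 3 from cells given DMSO as vehicle. DNMT1 is the enzyme that copies DNA methylation onto new strands. The treatment labels of inhibitor replicates 2 and 3 end in the next higher digits (GSK3685033 and GSK3685034), while the series design names GSK3685032 alone, so the 3 were kept as 1 group. The labels used here state neither dose nor time. A single line was used. Separate cultures are not named for the replicates, so the p-values cover only library-to-library spread, and that may be technical.

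NF-kappa-B proteins are dimers that bind kappa-B sites in DNA and switch on genes of inflammation, survival and B-cell activation. In the canonical pathway RELA, REL and p50 (cut from the NFKB1 product) are held in the cytoplasm by I-kappa-B proteins until a kinase complex, IKK, marks those inhibitors for destruction. In the non-canonical pathway, which B cells use downstream of CD40 and the BAFF receptor, the NFKB2 product p100 is cut to p52, which pairs with RELB. Several of these genes are themselves NF-kappa-B targets, among them the inhibitor NFKBIA and the deubiquitinase TNFAIP3.

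The 6 libraries held 53846028 to 75304441 estimated counts each, and about 4 counts may stand for 1 read pair. The members had from 172 counts (TRAF1) to 22971 (TNFAIP3) in a library. Transcripts of DNMT1 itself measured 13.32, 11.84 and 12.96 FPKM with the inhibitor and 32.99, 33.62 and 32.25 FPKM with DMSO. FPKM is the authors' fragment level scaled to transcript length and library size. B-cell markers were present in every library, with a summed level over 8 genes of 1148 to 1207 FPKM with the inhibitor and 1012 to 1040 FPKM with DMSO. Markers of other cell types stayed near 0: over 14 genes of T and NK, myeloid, stromal and endothelial cells, the highest value in any library was 1.36 FPKM. Their summed level was 0.928 to 1.91 FPKM with the inhibitor and 0.598 to 0.739 FPKM with DMSO for T and NK cells, 0.746 to 1.15 FPKM against 0.568 to 0.798 FPKM for myeloid cells, and 0.453 to 0.707 FPKM against 0.0988 to 0.132 FPKM for stromal and endothelial cells. In these lists 2, 2 and 3 genes were at 0 in every DMSO library. The part of these summed levels in the results was not tested. In bulk RNA, fewer cells that express a gene and less RNA per cell cannot be told apart.

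With the inhibitor, 8 of the 10 genes were lower, 1 was higher (NFKBIA) and 1 did not pass the test (TRAF1), by edgeR's quasi-likelihood test at a Benjamini-Hochberg adjusted p of 0.05 over all tested genes. Across the tested genes 65.4% were called, 27.3% lower and 38.1% higher. The split over all genes moved with the scaling. By edgeR it was 7918 higher and 5672 lower with TMM factors, and 9312 higher and 4344 lower with upper-quartile factors. By limma it was 7334 higher and 5747 lower on log2(FPKM + 0.5), and 5893 higher and 7342 lower once those values were quantile-normalized. The 5 subunits were all among the lower genes. BCL3, RELB and NFKB2 fell at least 2-fold, which 8.10% of tested genes did. NFKB2 lay at that threshold, with a log2 fold change of -1.01, and fell short of it with upper-quartile factors (-0.84). The median log2 fold change of the 10 genes was -0.60, beside 0.14 over all tested genes. That background median was 0.31 with upper-quartile factors and -0.09 by limma on quantile-normalized FPKM, and the member values moved with the scaling too. It also takes in weakly expressed genes. Among the 12395 genes at 1 FPKM or more in 3 libraries, 38.9% were called higher and 35.6% lower, and of the 8 members there, without REL and TRAF1, 1 was higher and 6 were lower. In 7 of the 10 every inhibitor library lay below every DMSO library (30.0% of tested genes), in NFKBIA every one lay above (41.7%), and in REL and TRAF1 the groups overlapped. The groups were apart in 71.7% of tested genes.

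**Figure D1:**
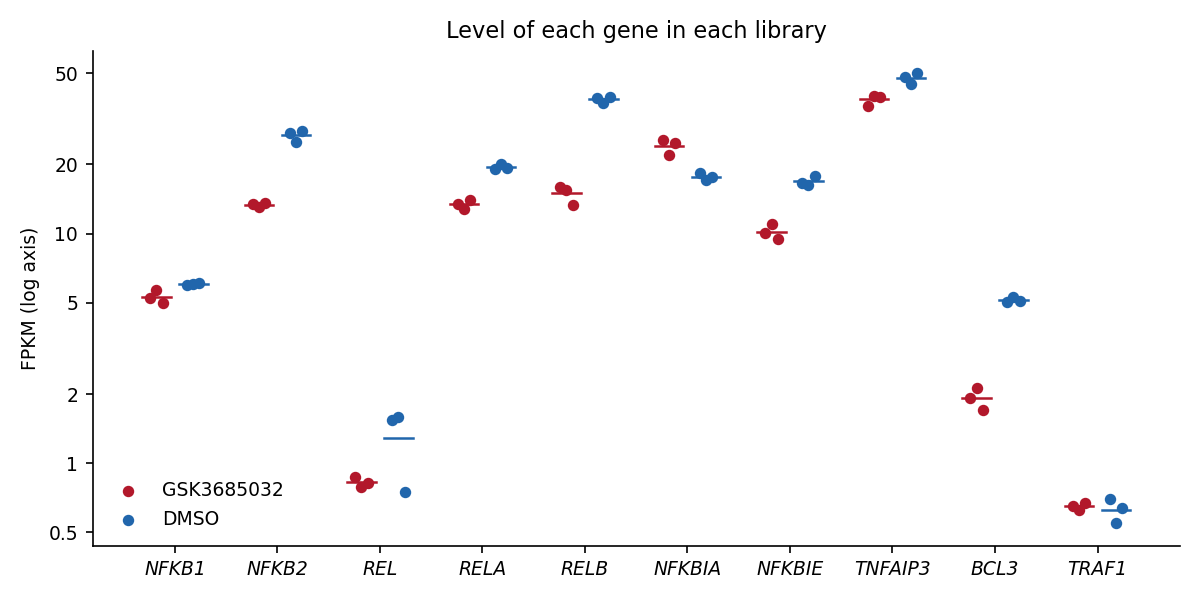
Level of each of the 10 genes in FPKM on a log axis, with 1 point per library (GSK3685032 red, DMSO blue) and a line at the mean of 3. RELB, NFKB2 and BCL3 show the widest gaps below DMSO, NFKBIA lies above its DMSO libraries, and a single DMSO library of REL lies below its inhibitor libraries.

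**Figure D2:**
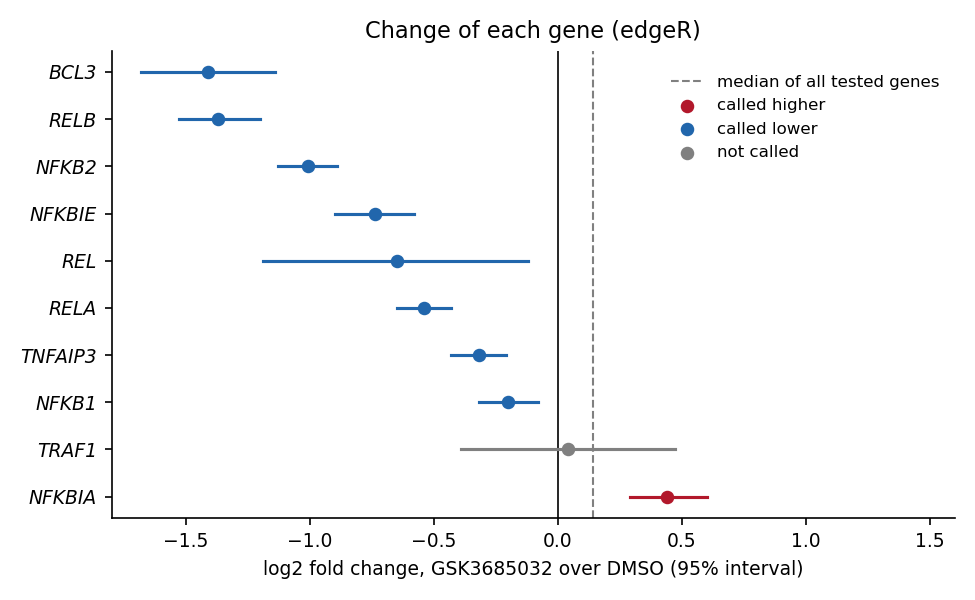
Log2 fold change of each gene, GSK3685032 over DMSO, with its 95% interval from edgeR (3 libraries each). Colours give the call, and the dashed line marks the median of all tested genes at 0.14. The changes run from -1.41 (BCL3) to 0.44 (NFKBIA).

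Because several members are reported kappa-B targets, the promoters were searched for the kappa-B consensus on both strands, in the 250 bases before each RefSeq start (GRCh38.p14). The consensus was GGGRNNYYCC, where R is A or G, Y is C or T and N is any base. RefSeq windows were matched for 8 of the 10 genes, 14 windows in all. RELB and NFKBIE had none. The consensus was found in 6 of these 14 windows, from 5 genes, and in 9.96% of all 35116 windows searched in the same way. The members were searched as reported targets, and genes with several starts gave several windows. All windows together were not matched to those of the members for base content, and the difference was not tested. Matches that overlapped were counted as 1. The stretches of 30 bases around the matches are shown for the 5 genes that had one, 5′ to 3′ on the strand of the gene, with the match in capitals.
NFKB1, chr4:102501300-102501329, plus strand: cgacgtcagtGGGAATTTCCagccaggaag
NFKB2, chr10:102394461-102394490, plus strand: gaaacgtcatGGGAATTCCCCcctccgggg
NFKB2, chr10:102394490-102394519, plus strand: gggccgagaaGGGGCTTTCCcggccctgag
NFKB2, chr10:102395519-102395548, plus strand: aacccccaccGGGGCTTCCCggattctcct
NFKB2, chr10:102395674-102395703, plus strand: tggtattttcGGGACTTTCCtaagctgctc
REL, chr2:60881517-60881546, plus strand: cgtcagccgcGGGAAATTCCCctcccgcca
NFKBIA, chr14:35404811-35404840, minus strand: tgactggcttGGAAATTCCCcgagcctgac
TNFAIP3, chr6:137867188-137867217, plus strand: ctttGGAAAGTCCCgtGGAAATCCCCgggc

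The match lay 49 bases before the RefSeq start in NFKB1, 47 in REL and 81 in NFKBIA. TNFAIP3 had a pair, 67 and 55 bases before its RefSeq start. NFKB2 had 4 over a pair of alternative RefSeq starts, 107 and 78 bases before the upstream start of that pair and 176 and 21 before the downstream one. Other annotations place some starts further upstream. The REL and NFKB2 matches lie within the genes as deposited, which begin at 60881491 and 102394110. The TNFAIP3 pair lies before the deposited start, 137867214, but within the gene in GENCODE 29, which begins at 137867188. The NFKB2 window that ends just before the deposited start held no match, nor did the downstream NFKB1 window. None was found in the windows of RELA, BCL3 and TRAF1. This says only that these letters were not in those windows. A match is a description of the sequence and does not show that a factor binds there.

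Among the genes with a match, the transcripts of 4 were called lower and those of NFKBIA higher, so matches were found in windows of genes of both directions. The NFKBIA window is shown in full as the promoter of the gene that moved against the others, at chr14:35404750-35404999 on the minus strand, with the consensus in capitals.
NFKBIA: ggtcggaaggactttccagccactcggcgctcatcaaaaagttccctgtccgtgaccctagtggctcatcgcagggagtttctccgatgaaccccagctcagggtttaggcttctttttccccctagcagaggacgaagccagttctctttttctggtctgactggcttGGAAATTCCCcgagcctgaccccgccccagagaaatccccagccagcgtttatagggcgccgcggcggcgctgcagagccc

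CpG pairs, the sites that DNMT1 methylates, numbered 15 in this NFKBIA window. Over the 14 member windows they ranged from 3 to 42, and 11 windows were at or above the median of all windows, which was 11. The most, 42, lay before the RELA start at chr11:65662917-65663166, and the fewest, 3, before a pair of alternative TRAF1 starts. DNA methylation was not measured in these libraries, and the CpG counts describe the reference sequence only.

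RELB and NFKB2, which form the non-canonical pair, carried the largest falls among the subunits. RELB (ENSG00000104856, GRCh38 chromosome 19, 45001461 to 45037790) is the subunit whose dimers with p52 enter the nucleus in that pathway. It measured 16.01, 15.45 and 13.36 FPKM in the inhibitor libraries, against 39.07, 37.13 and 39.2 FPKM in the DMSO libraries. All inhibitor libraries were far below the lowest DMSO library. The log2 fold change was -1.37 (SE 0.0734, edgeR adjusted p = 2.75e-07), which leaves 38.7% of the DMSO level. Only 5.45% of tested genes had a lower log2 fold change.

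NFKB2 (ENSG00000077150, chromosome 10, 102394110 to 102402524) encodes p100, which acts as an inhibitor of RELB until it is cut to p52. Its level was 13.38, 13.07 and 13.55 FPKM with the inhibitor and 27.32, 24.98 and 28.01 FPKM with DMSO. The inhibitor libraries lay close together, and all were far under the DMSO range. The log2 fold change was -1.01 (SE 0.0515, edgeR adjusted p = 2.10e-07), or 49.7% of the DMSO level.

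RELA encodes p65 and NFKB1 encodes p105, the precursor of p50, and these products form the most common canonical dimer. RELA (ENSG00000173039, chromosome 11, 65653599 to 65662972) measured 13.48, 12.82 and 13.97 FPKM with the inhibitor and 19.16, 20.01 and 19.2 FPKM with DMSO. The groups were apart, with a log2 fold change of -0.54 (SE 0.0481, edgeR adjusted p = 6.99e-06). NFKB1 (ENSG00000109320, chromosome 4, 102501330 to 102617301) measured 5.22, 5.65 and 4.98 FPKM with the inhibitor, against 5.96, 6.02 and 6.12 FPKM with DMSO. These groups did not overlap either, but the fall was the smallest of the 8, with a log2 fold change of -0.20 (SE 0.0534, edgeR adjusted p = 0.00851).

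The NFKB1 call depended on the scaling. Upper-quartile factors shifted the median log2 fold change over tested genes by 0.17 and left NFKB1 at -0.03 (edgeR adjusted p = 0.684). The call also ended with quantile-normalized FPKM (log2 fold change -0.11, limma adjusted p = 0.172) and in the fit limited to genes at 1 FPKM or more in 3 libraries (-0.10, edgeR adjusted p = 0.117).

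REL (ENSG00000162924, chromosome 2, 60881491 to 60931610) encodes c-Rel, the subunit most tied to B-cell activation, and its level as deposited was low. It measured 0.868, 0.788 and 0.819 FPKM with the inhibitor and 1.54, 1.59 and 0.749 FPKM with DMSO. DMSO replicate 3 lay below all 3 inhibitor libraries, so the groups overlapped. The log2 fold change was -0.65 with a wide interval, -1.19 to -0.12 (SE 0.238, edgeR adjusted p = 0.0357). Without DMSO replicate 3 it was -0.93 (edgeR adjusted p = 4.52e-05), and leaving out any other library ended the call (edgeR adjusted p from 0.0737 to 0.131). DESeq2 did not call it either (adjusted p = 0.0974).

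Another gene lies within the 3′ exons of REL on the same strand, where the authors' counting could split reads between the pair. The gene ENSG00000267520 (AC010733.2 in GENCODE 29) spans chromosome 2, 60925909 to 60931610, on the plus strand. All of its span, 5702 bases, lies within REL exons there. It held 8.09, 11.7 and 15.9 CPM (estimated counts scaled to the library total) with the inhibitor and 6.47, 10.1 and 14.7 with DMSO. REL held 16.3, 14.6 and 15.3 CPM with the inhibitor and 28.5, 28.9 and 13.8 with DMSO. In DMSO replicate 3, where REL was lowest, the overlapping gene was at the highest of its DMSO values. However, the overlapping gene rose with replicate number in both groups. It was highest in inhibitor replicate 3 (15.9), where REL, at 15.3, lay between its other inhibitor values. Summed, the 2 genes came to 24.4, 26.3 and 31.1 CPM with the inhibitor and 34.9, 39.0 and 28.6 with DMSO. The groups still overlapped, and the log2 fold change of the sum was -0.35 (SE 0.123, edgeR adjusted p = 0.029). In FPKM the overlapping gene was at 1.298, 1.891 and 2.56 with the inhibitor and 1.055, 1.656 and 2.402 with DMSO. The size of the REL fold change is therefore uncertain. So are its level, its rank, its share among the subunits and its ratio to RELA, given below as deposited. The part of the overlap in these values was not tested.

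**Figure D3:**
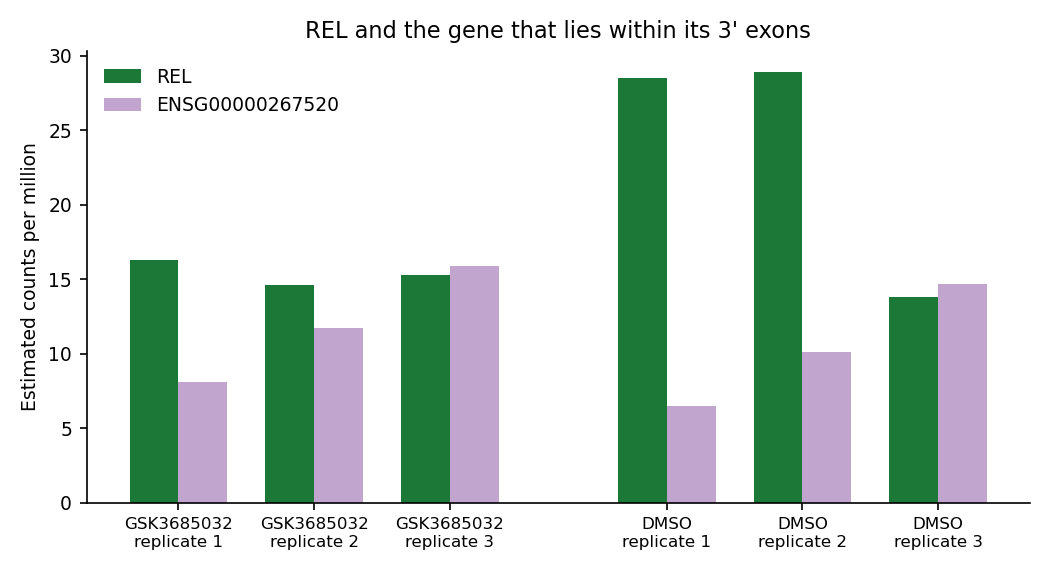
CPM of REL (green) and of ENSG00000267520 (violet), the gene within its 3′ exons, in each library. REL stands at 28.5 and 28.9 in DMSO replicates 1 and 2 but at 13.8 in DMSO replicate 3, where the overlapping gene stands at 14.7. In inhibitor replicate 3 the overlapping gene stands at 15.9 and REL at 15.3.

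The falls differed in size, so the make-up of the subunit transcripts differed between the groups. Summed over the 5 subunits, the level was 49.0, 47.8 and 46.7 FPKM with the inhibitor and 93.1, 89.7 and 93.3 FPKM with DMSO. The share of RELB in that sum was 32.7%, 32.3% and 28.6% with the inhibitor, against 42.0%, 41.4% and 42.0% with DMSO. RELA held 27.5%, 26.8% and 29.9% with the inhibitor and 20.6%, 22.3% and 20.6% with DMSO. NFKB1 held 10.7%, 11.8% and 10.7% with the inhibitor and 6.40%, 6.71% and 6.56% with DMSO. For each of these 3 subunits the groups did not overlap. The differences in share were -10.58 percentage points for RELB, 6.94 for RELA and 4.49 for NFKB1 (each exact permutation p = 0.1, two-sided, adjusted p = 0.167 over 5 shares). With 3 against 3 libraries, 0.1 is the smallest p such a test can give, so none could reach 0.05.

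The shares of NFKB2 and REL overlapped between the groups. NFKB2 held 27.9% ± 0.975 with the inhibitor and 29.1% ± 1.12 with DMSO (SD, n = 3 each, exact permutation p = 0.2), and REL held 1.73% ± 0.0674 with the inhibitor and 1.41% ± 0.528 with DMSO (exact permutation p = 0.6). RELB was the largest single share by mean in both groups.

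**Figure D4:**
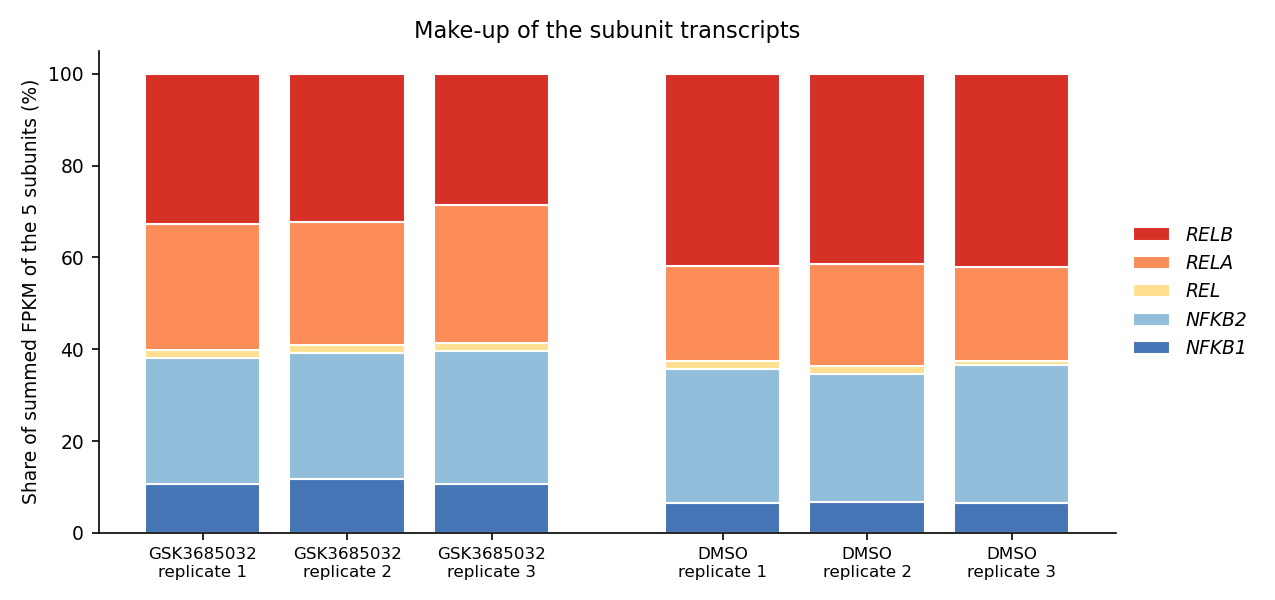
Share of each subunit in the summed FPKM of the 5 subunits, in percent, as 1 stacked bar per library. The RELB share is 28.6% to 32.7% in the inhibitor libraries and 41.4% to 42.0% in the DMSO libraries, while RELA and NFKB1 take larger shares with the inhibitor.

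NFKBIA and NFKBIE, both I-kappa-B proteins that hold dimers in the cytoplasm, moved in opposite directions. NFKBIA (ENSG00000100906, chromosome 14, 35401079 to 35404749) encodes I-kappa-B-alpha, whose resynthesis ends an NF-kappa-B response. It measured 25.59, 21.9 and 24.82 FPKM with the inhibitor and 18.31, 17.03 and 17.6 FPKM with DMSO. All inhibitor libraries were above all DMSO libraries, with a log2 fold change of 0.44 (SE 0.0675, edgeR adjusted p = 0.000267), or 1.36-fold. It was not an extreme value, since 60.6% of tested genes had a lower log2 fold change.

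NFKBIE (ENSG00000146232, chromosome 6, 44258166 to 44265788) encodes I-kappa-B-epsilon, which is known in B cells for restraining dimers with REL and RELA. Its level was 10.03, 11.02 and 9.48 FPKM with the inhibitor and 16.63, 16.27 and 17.83 FPKM with DMSO. The groups were apart in the other direction from NFKBIA, at a log2 fold change of -0.74 (SE 0.0719, edgeR adjusted p = 1.29e-05). The log2 ratio of NFKBIE to NFKBIA was -1.35, -0.99 and -1.39 with the inhibitor, against -0.14, -0.07 and 0.02 with DMSO. The pair was thus near parity with DMSO, and NFKBIA stood above NFKBIE in every inhibitor library (difference -1.18, exact permutation p = 0.1, the smallest possible).

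TNFAIP3 encodes A20, a ubiquitin-editing enzyme that shuts off signalling upstream of IKK, and it was the most abundant of the 10 transcripts in both groups. The gene (ENSG00000118503, chromosome 6, 137867214 to 137883314) measured 36.04, 39.56 and 39.43 FPKM with the inhibitor and 48.13, 44.83 and 49.88 FPKM with DMSO. It fell by 0.32 on the log2 scale (SE 0.0496, edgeR adjusted p = 0.000303), without overlap between the groups. Under quantile normalization it was not called (-0.12, limma adjusted p = 0.11). The antisense gene WAKMAR2 shares 95 exon bases with TNFAIP3 in GENCODE 29, and with no strand setting stated for the counting, reads there cannot be told apart. WAKMAR2 was at 8.951, 10.279 and 10.591 FPKM with the inhibitor and 9.065, 8.054 and 8.955 FPKM with DMSO.

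BCL3, a nuclear I-kappa-B protein that binds p50 and p52 homodimers and can activate transcription with them, had the largest fall of the 10. The gene (ENSG00000069399, chromosome 19, 44747705 to 44759486) measured 1.92, 2.12 and 1.70 FPKM with the inhibitor and 5.03, 5.27 and 5.09 FPKM with DMSO. The groups were far apart. The log2 fold change was -1.41 (SE 0.121, edgeR adjusted p = 5.28e-06), leaving 37.5% of the DMSO level, and 5.12% of tested genes had a lower value.

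TRAF1, an adaptor of TNF receptors and a common readout of NF-kappa-B activity, was barely expressed and is the member that did not pass the test. It (ENSG00000056558, chromosome 9, 120902393 to 120926796) measured 0.648, 0.623 and 0.673 FPKM with the inhibitor and 0.697, 0.548 and 0.638 FPKM with DMSO. The inhibitor libraries lay inside the DMSO range. The log2 fold change was 0.04 with a 95% interval of -0.39 to 0.47 (edgeR adjusted p = 0.871), at 172 to 205 counts per library. A change in either direction within that interval remains possible. With quantile-normalized FPKM it was called lower (-0.36, limma adjusted p = 0.013).

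The order of levels per length was altered by these changes. With the inhibitor it ran from TNFAIP3 (38.3 FPKM) through NFKBIA (24.1), RELB (14.9), RELA (13.4), NFKB2 (13.3), NFKBIE (10.2), NFKB1 (5.28), BCL3 (1.92) and REL (0.825) to TRAF1 (0.648). With DMSO the order was TNFAIP3 (47.6 FPKM), RELB (38.5), NFKB2 (26.8), RELA (19.5), NFKBIA (17.6), NFKBIE (16.9), NFKB1 (6.03), BCL3 (5.13), REL (1.29) and TRAF1 (0.628). NFKBIA thus stood at rank 2 with the inhibitor and at rank 5 with DMSO. With the inhibitor the library ranges of RELB, RELA and NFKB2 ran into each other, and with DMSO those of NFKBIA and NFKBIE did, so these neighbours did not differ beyond their spread.

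Ratios within a library, which do not depend on scaling between libraries, were computed for 8 pairs, and in 7 the groups did not overlap. Pairs of other genes were not computed, and taken singly 71.7% of tested genes had groups that were apart. Most of the 8 pairs share RELA, so they are not separate results. The log2 ratio of RELB to RELA was 0.15 ± 0.187 with the inhibitor and 0.98 ± 0.0791 with DMSO (SD, n = 3 each, as for the ratios that follow). NFKB2 to NFKB1 was 1.34 ± 0.119 with the inhibitor and 2.15 ± 0.0829 with DMSO. In both pairs the non-canonical member was lower against the canonical one, by differences of -0.83 and -0.81 on the log2 scale. NFKBIA to RELA was 0.84 ± 0.0775 with the inhibitor and -0.14 ± 0.0847 with DMSO, so NFKBIA stood above RELA in every inhibitor library and below it in every DMSO library. TNFAIP3 to RELA was 1.51 ± 0.104 with the inhibitor and 1.29 ± 0.112 with DMSO. BCL3 to RELA was -2.81 ± 0.221 with the inhibitor and -1.92 ± 0.00684 with DMSO. TRAF1 to RELA was -4.37 ± 0.00834 with the inhibitor and -4.96 ± 0.209 with DMSO, though TRAF1 itself was not called and RELA was called lower. For these pairs and for NFKBIE to NFKBIA the exact permutation p was 0.1, the smallest possible, and 0.114 after adjustment over the 8 pairs. REL to RELA overlapped between the groups (difference -0.03, exact permutation p = 1.0).

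Other genes of the pathway, in 4 chosen lists, went in both directions, as did the tested genes at large. Among all tested genes 38.1% were called higher and 27.3% lower, and the counts per list are to be read beside these shares. Of 24 receptors and proximal adaptors tested, 11 were higher and 9 lower (median log2 fold change 0.11). TNFRSF13C, the BAFF receptor, averaged 3.33 ± 0.452 FPKM with the inhibitor and 0.54 ± 0.108 FPKM with DMSO (log2 fold change 2.61, edgeR adjusted p = 1.47e-06). TNFRSF1A, a receptor of TNF, averaged 1.61 ± 0.0467 FPKM with the inhibitor and 0.631 ± 0.0796 FPKM with DMSO. TLR9, a sensor of unmethylated CpG DNA, averaged 6.18 ± 0.582 FPKM with the inhibitor and 2.37 ± 0.258 FPKM with DMSO. The plasma cell receptor TNFRSF17 was lower, at 0.498 ± 0.214 FPKM with the inhibitor and 2.76 ± 0.292 FPKM with DMSO (log2 fold change -2.45, edgeR adjusted p = 0.000101).

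Of 19 genes of the IKK, TAK1, LUBAC and CBM complexes, which relay the signal to I-kappa-B, 6 were higher, 7 lower and 6 not called (median -0.09). RBCK1, a subunit of the linear ubiquitin ligase LUBAC, averaged 20.1 ± 0.795 FPKM with the inhibitor and 9.79 ± 0.3 FPKM with DMSO (log2 fold change 1.03, edgeR adjusted p = 6.32e-08). MAP3K14, the kinase NIK that starts p100 processing, averaged 2.87 ± 0.155 FPKM with the inhibitor and 4.37 ± 0.226 FPKM with DMSO (log2 fold change -0.61, edgeR adjusted p = 0.000113). TAB1, a partner of the kinase TAK1, and UBE2N, which builds signalling ubiquitin chains, fell by 0.65 and 0.63 on the log2 scale.

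Of 17 other I-kappa-B proteins and negative regulators, 4 were higher, 5 lower and 8 not called (median -0.07), and with upper-quartile factors or quantile normalization 7 were higher. The nuclear I-kappa-B proteins NFKBIZ and NFKBID moved opposite to BCL3. NFKBIZ averaged 6.34 ± 0.799 FPKM with the inhibitor and 3.27 ± 0.554 FPKM with DMSO, and NFKBID averaged 3.53 ± 0.308 FPKM with the inhibitor and 2.07 ± 0.0379 FPKM with DMSO (log2 fold changes 0.95 and 0.76, edgeR adjusted p = 9.49e-05 and 0.000372). RNF11, a component of the A20 complex, rose to 8.40 ± 0.618 FPKM with the inhibitor, against 4.05 ± 0.319 FPKM with DMSO. OTULIN, which removes linear ubiquitin chains, fell to 3.95 ± 0.103 FPKM with the inhibitor, against 7.56 ± 0.074 FPKM with DMSO.

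Of 28 NF-kappa-B target genes tested, 13 were higher and 8 lower (median 0.38). IER3, an early stress response gene, averaged 15.9 ± 3.79 FPKM with the inhibitor and 1.05 ± 0.412 FPKM with DMSO (log2 fold change 3.89, edgeR adjusted p = 2.42e-06). CCND2, cyclin D2, averaged 1.16 ± 0.217 FPKM with the inhibitor and 0.158 ± 0.0054 FPKM with DMSO. BIRC3, an inhibitor of apoptosis that also degrades NIK, averaged 2.69 ± 0.307 FPKM with the inhibitor and 12.6 ± 0.0922 FPKM with DMSO (log2 fold change -2.23, edgeR adjusted p = 1.87e-08). CD80, a costimulatory ligand, averaged 3.27 ± 0.229 FPKM with the inhibitor and 11.4 ± 0.804 FPKM with DMSO. These lists were described by counts and medians, and no set test was run.

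**Figure D5:**
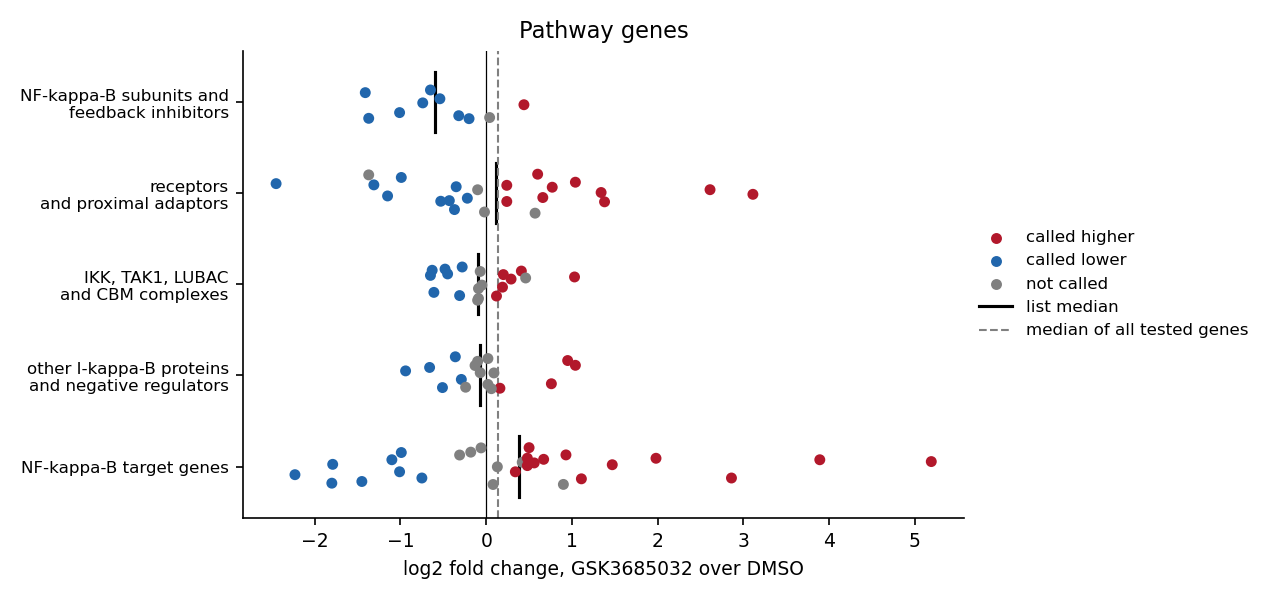
Log2 fold change, GSK3685032 over DMSO, of the 10 genes and of 4 lists of other pathway genes, with 1 point per tested gene coloured by its call. A gene at 0 in every DMSO library is not drawn. The median of the 10 genes lies at -0.60, and those of the lists lie between -0.09 and 0.38, beside 0.14 for all tested genes.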

How the data were processed

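RNA from 6 SU-DHL-8 libraries was compared, grouped by title. The submitters' processing notes list HISAT2 2.2.1, cutadapt 1.9, edgeR, DESeq2 and StringTie 2.1.6 without roles, and mm10 as build. The deposited IDs are human: 34105 matched GENCODE 29, and 99.89% of those overlapped their GRCh38 position. The authors deposited an FPKM value and a whole-number estimated count per gene. Low counts pile up at 4 (1319.8 genes per library, against 725.8 at 3), so about 4 counts may stand for 1 read pair. How the counts were made and whether strand was used are not stated. Counts were used as deposited in edgeR 4.0.16 (R 4.3.3, filterByExpr, TMM factors 0.9805 to 1.021, 95% intervals). The script was first tested on simulated counts in which a small part of the genes changed, in random directions. That setting differs from these data and does not bear on the choice of scaling. limma 3.58.1 used log2(FPKM + 0.5) with trend, for genes at 0.1 FPKM in 3 libraries. No 2 libraries were identical. A share or ratio was tested by exact permutation. The members and lists were chosen with earlier results of these data known. Named outside the members were DNMT1 and, per list, the up to 4 called genes with the largest absolute log2 fold change at a mean FPKM of at least 1 in a group.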

Additional observations from a re-analysis of the deposited data

How the results depend on the processing

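Refitting under 20 alternatives (other scalings, filters, pseudocounts, DESeq2, limma, counts divided by 4, each library left out, inhibitor replicate 1 alone) left 1 member higher throughout and 6 to 8 lower. BCL3, RELB, NFKB2, RELA, NFKBIE and NFKBIA kept direction and call in all 20, over log2 ranges of -1.48 to -1.07, -1.44 to -1.14, -1.05 to -0.78, -0.56 to -0.31, -0.79 to -0.52 and 0.38 to 0.64. REL kept its call in 7 of 19. TRAF1 changed sign under quantile normalization (-0.36) and without DMSO replicate 2 (-0.05; 0.11 at most on leaving out 1 library). The ratio of REL to RELA changed sign with inhibitor replicate 1 alone (0.03), with a pseudocount of 0.5 (0.12) and on leaving out 1 library (-0.38 to 0.14). Over all genes 7918 were higher and 5672 lower, but 4826 were higher at an FPKM of at least 1 in 3 libraries, where fewer genes were tested, 9312 were higher and 4344 lower with upper-quartile factors, and 5893 were higher and 7342 lower under quantile normalization (7334 and 5747 by limma without it). Summing REL with its overlapping gene was chosen after seeing the data. The numbers in the titles did not pair libraries (correlations of deviations 0.0 to 0.02). With the replicate block 7448 genes were higher and 5368 lower, and 1 and 8 members. TRAF1 had the fewest counts of the members, 172 to 205 per library.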
